A study of Mus musculus with 18 samples.

Results

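The Rel/NF-kB subunits and the IkB proteins that hold or steer them form one gene family group of 10 in the deposited count table: the subunits Nfkb1, Nfkb2, Rel, Rela and Relb, the classical inhibitors Nfkbia, Nfkbib and Nfkbie, and the atypical IkB proteins Nfkbid and Nfkbiz. They were taken by name, all 10 were in the table of 23420 genes, and all 10 passed the filter on low counts that kept 10630 genes. Their transcripts were followed in RNA-seq libraries of regulatory T cells (Treg cells) sorted from mice, 18 libraries in 6 groups of 3. The groups were effector cells of FCre x C1fl/fl, FCre x C1fl/+ and FCre x C1+/+ mice and resting cells of the same 3 genotypes, written here as fl/fl, fl/+ and +/+, so that FCre is a label of every group, +/+ included. Neither the driver behind FCre nor the age or sex of the mice is given in the sources used here, nor are the markers of the sorting gates. The labels number the libraries of each group 1 to 3, and values below are listed in that order. Nothing in the labels says that the 3 libraries of a group came from separate mice, so p-values measure the spread between these samples.

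NF-kB factors are dimers of the 5 subunits. Nfkb1 and Nfkb2 encode precursors, p105 and p100, that are processed to p50 and p52, while Rela (p65), Rel (c-Rel) and Relb (RelB) carry the activating domain. The classical IkB proteins keep dimers in the cytoplasm until IkB kinase marks them for destruction, and NF-kB in turn switches on several genes of its own circuit, such as Nfkbia, which closes a feedback loop. The atypical IkB proteins IkBNS (Nfkbid) and IkB zeta (Nfkbiz) act on NF-kB in the nucleus. In T cells the antigen receptor reaches IkB kinase through a scaffold complex that contains Bcl10 and Malt1, and c-Rel is known for its part in the formation of Treg cells. RelB with p52 is the dimer best known from the alternative pathway, which runs through the kinase NIK (Map3k14).

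The genes lie apart in the genome. In build GRCm38.p6, to which the mm10 assembly of the submitters' processing notes corresponds, RefSeq places Nfkb1 at chr3:135584655-135691969, Nfkb2 at chr19:46300994-46312400, Rela at chr19:5637442-5648134, Rel at chr11:23736847-23770969 and Relb at chr7:19606217-19629438. The classical inhibitors are at chr12:55489409-55492647 for Nfkbia, chr7:28758251-28766644 for Nfkbib and chr17:45555700-45563169 for Nfkbie. Nfkbid is at chr7:30421731-30428749 and Nfkbiz at chr16:55811375-55838954. In the GENCODE vM21 annotation, 11.6% of the exon bases of Nfkb2 are shared with AC114539.1 and 6.5% with Psd, and 14.5% of those of Nfkbib are shared with Ccer2 and 1.9% with Sirt2, all on the opposite strand. The strand setting of the counting is not given in the sources used here, so reads from those stretches cannot be told apart.

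Promoter sequences are shown because several of these genes are known to respond to the factors they encode, and the letters NF-kB binds can be looked for in front of them. The RefSeq promoter table held 7 of the 10 genes; Nfkb1, Relb and Nfkbiz had no entry. The kappaB consensus, a motif of 10 bases, was searched on both strands in the 250 bases before each start site, and overlapping matches were each counted. At least 1 match was present in 3.9% of all 32851 windows of that length, and 4.46% of the 27025 genes had a match in any window. Of the 7 genes, 5 had one: Nfkb2, Rel, Nfkbia, Nfkbie and Nfkbid. A match is only a run of letters, and binding was not measured. The windows are printed 5′ to 3′ on the strand of the gene, with matches in capitals.
Nfkb2, first of 3 start sites, chr19:46304487-46304736, plus strand: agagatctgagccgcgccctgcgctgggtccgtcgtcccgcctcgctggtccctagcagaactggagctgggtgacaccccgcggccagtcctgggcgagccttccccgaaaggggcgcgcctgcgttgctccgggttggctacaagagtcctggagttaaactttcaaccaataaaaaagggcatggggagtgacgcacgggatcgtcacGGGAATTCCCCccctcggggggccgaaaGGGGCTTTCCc
Rel, chr11:23770970-23771219, minus strand: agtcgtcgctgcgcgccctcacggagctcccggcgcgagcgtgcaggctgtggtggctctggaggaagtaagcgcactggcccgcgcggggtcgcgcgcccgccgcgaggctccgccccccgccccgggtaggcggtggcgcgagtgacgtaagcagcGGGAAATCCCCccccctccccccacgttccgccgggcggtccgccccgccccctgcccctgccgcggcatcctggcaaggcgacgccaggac
Nfkbia, chr12:55492648-55492897, minus strand: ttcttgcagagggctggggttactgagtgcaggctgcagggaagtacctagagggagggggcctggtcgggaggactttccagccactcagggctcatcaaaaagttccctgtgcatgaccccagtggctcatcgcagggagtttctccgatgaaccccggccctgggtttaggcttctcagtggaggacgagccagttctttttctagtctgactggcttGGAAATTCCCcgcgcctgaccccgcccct
Nfkbie, chr17:45555450-45555699, plus strand: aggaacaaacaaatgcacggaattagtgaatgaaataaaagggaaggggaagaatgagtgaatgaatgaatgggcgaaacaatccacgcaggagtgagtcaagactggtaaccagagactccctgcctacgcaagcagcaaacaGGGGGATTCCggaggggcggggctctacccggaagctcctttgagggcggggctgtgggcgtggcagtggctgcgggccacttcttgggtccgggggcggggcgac
Nfkbid, second of 3 start sites, chr7:30422156-30422405, plus strand: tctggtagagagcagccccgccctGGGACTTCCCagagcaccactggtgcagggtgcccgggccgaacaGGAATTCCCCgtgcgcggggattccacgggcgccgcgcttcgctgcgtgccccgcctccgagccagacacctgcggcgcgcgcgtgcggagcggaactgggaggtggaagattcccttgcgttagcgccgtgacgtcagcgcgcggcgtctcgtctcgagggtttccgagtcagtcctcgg
Rela, chr19:5637291-5637540, plus strand, with no match: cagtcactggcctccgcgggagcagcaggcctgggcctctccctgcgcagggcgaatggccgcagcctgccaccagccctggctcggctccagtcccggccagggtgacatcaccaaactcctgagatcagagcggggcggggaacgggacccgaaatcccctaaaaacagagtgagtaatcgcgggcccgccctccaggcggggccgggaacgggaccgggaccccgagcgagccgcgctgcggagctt

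The Nfkb2 window held 3 matches, which began 39, 38 and 11 bases before the start, and the windows of its other start sites held 1 each. All 3 of these start sites lie inside the RefSeq span of Nfkb2 given above. The bases before the first base of that span, chr19:46300994, had no window and were not searched. In Rel a pair of overlapping matches began 92 and 91 bases before the start. The Nfkbia match began 29 bases before the start, the Nfkbie match 106, and the Nfkbid matches 226 and 181 bases before its second start site. The other windows of Nfkbid, and that of Nfkbib, contained no match.

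Library totals ran from 1658073 to 5756903 expected counts. Levels of 1 gene are given in CPM, counts relative to the library total, after TMM scaling. The sorted cells carried the transcripts of their label: Foxp3, the factor that defines Treg cells, lay between 211 and 479 CPM over the 18 libraries. A list of 5 effector-state markers (Icos, Klrg1, Prdm1, Itgae and Lag3) summed to 199 to 684 CPM in fl/fl, 690 to 1003 in fl/+ and 823 to 1479 in +/+ effector cells, and to 65.2 to 165, 77.8 to 109 and 97.1 to 144 CPM in fl/fl, fl/+ and +/+ resting cells. Several libraries stood apart within their group. The effector-marker sum was 684 CPM in fl/fl effector library 1 and 199 and 316 in libraries 2 and 3, whereas in +/+ effector cells it was 823 CPM in library 3 and 1479 and 1465 in libraries 1 and 2. The number 1 libraries of fl/+ had the highest sums over 12 genes known to respond to cell handling, such as Fos and Hspa1a: 2339 CPM in effector and 3515 CPM in resting cells, against 921 to 1837 CPM in the other 16 libraries. A B cell list (6 genes in the table, 4 tested) summed to 78.6 CPM in +/+ resting library 3 and to 9.64 to 51.2 CPM elsewhere, with Pax5 at 0 in 13 libraries and Ms4a1 at 0 in 4.

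Every member was transcribed in every library. On the FPKM scale, which divides by length and so allows genes to be compared, Nfkbia was the most abundant, with a mean of 230.3 FPKM over the 18 libraries (150.2 to 326). Rela, the main activating subunit, came next at 48.2 FPKM (41.5 to 55.8). Relb at 39.3, Nfkb2 at 37.0, Rel at 36.4, Nfkbiz at 35.2 and Nfkbid at 33.5 FPKM followed with ranges that overlapped. Nfkbib averaged 29.2, Nfkbie 18.8 and Nfkb1 14.2 FPKM, the lowest of the group (9.15 to 19.1). The mean FPKM of Nfkbia stood at the 97.3 percentile of the genes tested and that of Nfkb1 at the 56.1 percentile. Rela was also the steadiest, with its highest library 1.43-fold above its lowest in CPM, against 2.56-fold for Nfkb2 and 2.51-fold for Relb.

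**Figure D1:**
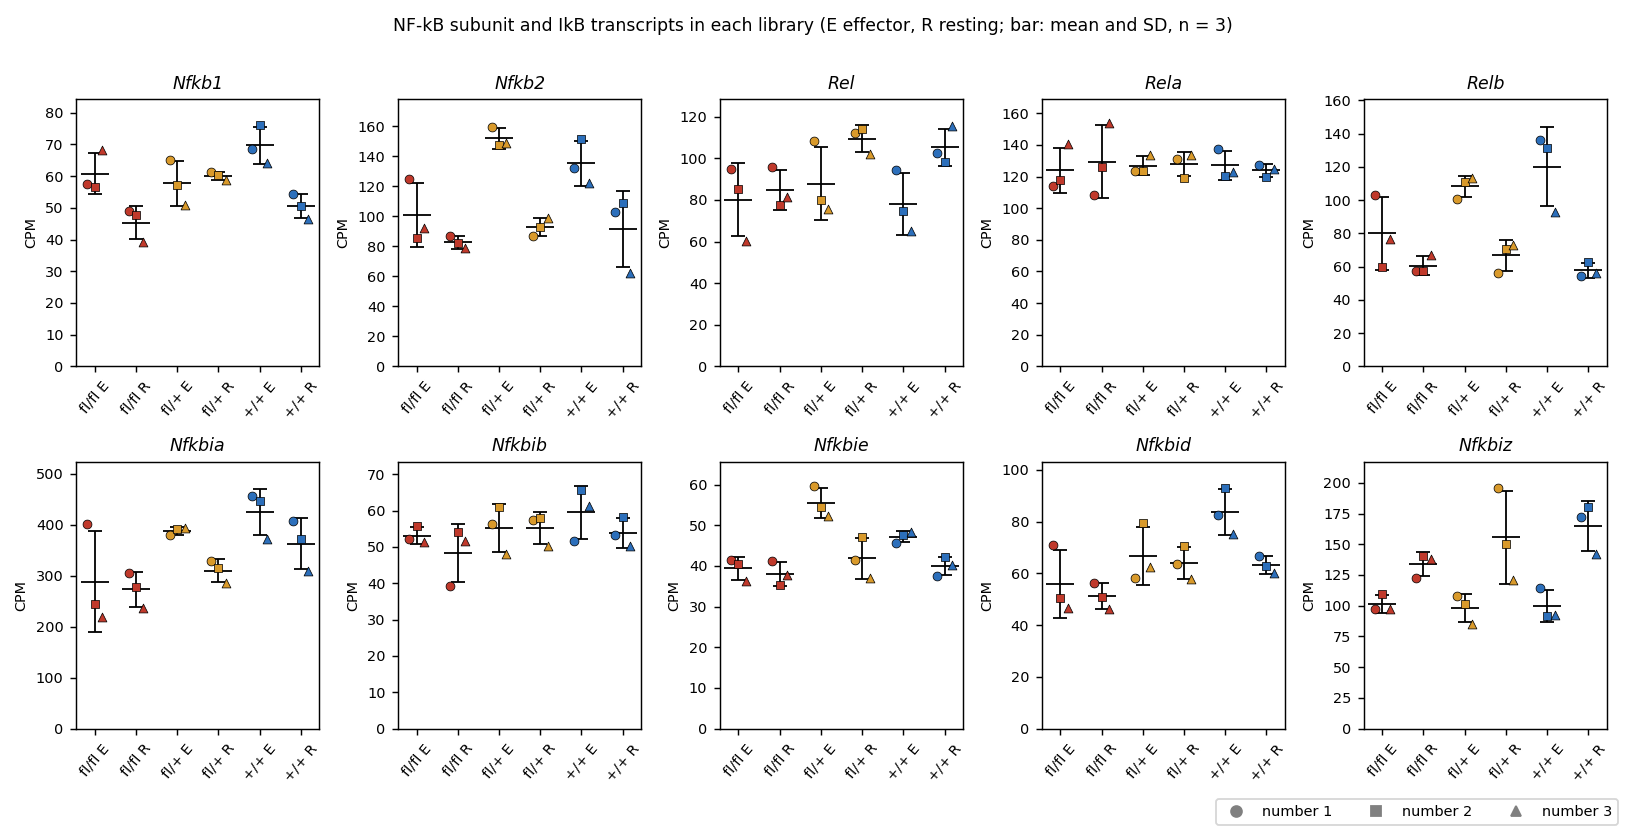
CPM of the 10 genes in each library (vertical axes, linear from 0) by genotype and state (E effector, R resting), with marker shapes for library numbers and bars for the group mean and SD (n = 3). Relb spans 92.8 to 136 CPM in +/+ effector libraries and 54.3 to 62.8 CPM in +/+ resting libraries, while Rela stays between 108 and 154 CPM in all 18.

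The first comparison asks which NF-kB and IkB transcripts differ between effector and resting Treg cells of one genotype. Relb and Nfkb2, the transcripts of the RelB and p52 pair, were higher in effector cells of fl/+ and of +/+ mice, and Nfkbiz was lower in both. Nfkbie was also called in fl/+ and Nfkb1 in +/+. In the edgeR quasi-likelihood fit, with Benjamini-Hochberg adjustment over all 10630 genes, no member was called in fl/fl (background 6.34% of genes called), 4 were called in fl/+ (16.3%) and 4 in +/+ (16.0%). At an unadjusted p under 0.05 there were 3, 4 and 6 members in fl/fl, fl/+ and +/+, beside 19.1%, 29.3% and 28.7% of all genes. DESeq2 called 0, 4 and 4 members, and 5.93%, 14.0% and 13.0% of the genes it gave an adjusted p. The labels number the libraries, and that number was also taken as a possible batch. With it as a replicate block within genotype, 1, 5 and 6 members were called, beside 10.1%, 21.3% and 20.5% of all genes, and the count over all genes in fl/fl was 1071 with the block and 674 without it. With the number as a block over all libraries, 1, 4 and 5 members were called, beside 7.86%, 19.2% and 18.6% of all genes. Groups without overlap were seen for 2, 5 and 7 of 10 members in fl/fl, fl/+ and +/+ and for 21.7%, 34.1% and 32.3% of all genes. These are bulk libraries, so fewer cells of a type and less RNA per cell cannot be told apart.

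Markers of other kinds differed between the states in the same libraries. Of 5 proliferation genes, such as Mki67, 5, 5 and 4 rose in fl/fl, fl/+ and +/+ effector cells, with sums of 266 to 368, 163 to 260 and 99.4 to 258 CPM in effector and 16.2 to 68.6, 30.6 to 53.9 and 39.8 to 63.6 CPM in resting cells. Of 5 markers of CD8 T or NK cells, 3 were tested, and Cd8b1 and the perforin gene Prf1 fell in fl/+ and +/+ effector cells, with log2 differences for Prf1 of -2.38 and -2.22. The other tested gene of that list, Klrb1c, went the other way, at 2.14, 2.76 and 3.43 in fl/fl, fl/+ and +/+. It was not called (adjusted p = 0.202, 0.169 and 0.157 by edgeR). That list summed to 29.0 to 47.8, 19.0 to 20.7 and 19.2 to 24.3 CPM in fl/fl, fl/+ and +/+ effector and to 36.0 to 45.9, 38.3 to 42.9 and 36.8 to 47.4 CPM in resting cells, with Ncr1 at 0 in 14 of the 18 libraries. Of 5 myeloid markers, 2 were tested, and Cst3 rose by 0.53 in +/+, where the list summed to 91.7 to 103 CPM in effector and 63.2 to 68.7 CPM in resting cells. In fl/fl and fl/+ it summed to 73.2 to 77.4 and 69.2 to 98.5 CPM in effector and to 69.2 to 83.2 and 68.7 to 85.0 CPM in resting cells, and Cd14 was at 0 in 16 libraries and Csf1r in 12. The part of these markers in the state differences below was not tested.

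Among the subunits, Relb had 103, 59.7 and 76.8 CPM in fl/fl effector libraries, against 57.6, 57.4 and 67.0 CPM in fl/fl resting libraries. In fl/+ it had 101, 111 and 113 CPM in effector and 56.2, 70.8 and 73.2 CPM in resting libraries, and in +/+ mice 136, 132 and 92.8 CPM in effector and 54.3, 62.8 and 56.1 CPM in resting libraries. Effector and resting libraries did not overlap in fl/+ or +/+ but did in fl/fl, where library 1 was the high one. Relb rose by 1.06 on the log2 scale in +/+ (SE 0.17, adjusted p = 0.000266 by edgeR) and by 0.71 in fl/+ (SE 0.17, adjusted p = 0.00644). In fl/fl the value was 0.41 (SE 0.17, adjusted p = 0.19, higher in 3 of 3 numbered pairs). The fl/+ call was lost without resting library 1 (0.59, adjusted p = 0.0518), the library with the handling-response sum of 3515 CPM, whose part in the result was not tested beyond that. Without fl/fl effector library 2, Relb was called in fl/fl as well (0.59, adjusted p = 0.035).

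Nfkb2 was likewise called in fl/+ and +/+ and not in fl/fl. It had 125, 85.5 and 91.9 CPM in fl/fl effector and 87.1, 82.3 and 78.5 CPM in fl/fl resting libraries. In fl/+ it had 160, 147 and 148 CPM in effector cells, all far above the 86.8, 92.9 and 98.6 CPM in resting cells. In +/+ the values were 132, 151 and 122 CPM in effector and 103, 109 and 62.4 CPM in resting cells, with no overlap, and the lowest of them was resting library 3. Nfkb2 rose by 0.72 on the log2 scale in fl/+ (SE 0.16, adjusted p = 0.00383 by edgeR) and by 0.56 in +/+ (SE 0.16, adjusted p = 0.0236). Its value in fl/fl was 0.30 (SE 0.17, adjusted p = 0.341, higher in 3 of 3 numbered pairs). In +/+ the call rested on single libraries: the adjusted p was 0.116 without resting library 3, where the log2 difference was 0.34 and which also had the B cell sum of 78.6 CPM, 0.0584 without effector library 1 and 0.0999 without effector library 2. Whether B cell RNA has a part in the low Nfkb2 value of that library was not tested.

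Nfkb1 had 57.4, 56.7 and 68.3 CPM in fl/fl effector and 48.9, 47.6 and 39.3 CPM in fl/fl resting libraries. In fl/+ it had 65.0, 57.2 and 50.8 CPM in effector and 61.2, 60.2 and 58.7 CPM in resting libraries. In +/+ it had 68.7, 76.1 and 64.3 CPM in effector and 54.3, 50.6 and 46.6 CPM in resting libraries. The states were apart in fl/fl and in +/+ and lay within each other in fl/+. Nfkb1 rose by 0.46 on the log2 scale in +/+ (SE 0.13, adjusted p = 0.017 by edgeR), which moved to an adjusted p of 0.074 without +/+ effector library 2 and of 0.0711 without +/+ resting library 3. The fl/fl value was nearly as large, 0.42 (SE 0.13), with an adjusted p of 0.061, and of 0.0476 with the replicate block over all libraries (0.41), and the fl/+ value was -0.06 (SE 0.12, adjusted p = 0.823).

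Rel, the c-Rel gene, had a lower mean in effector than in resting cells of each genotype. Its levels were 94.2, 74.5 and 65.0 CPM in +/+ effector against 103, 98.1 and 115 CPM in +/+ resting libraries, which did not overlap. In fl/+ they were 108, 80.0 and 75.5 CPM in effector and 112, 114 and 102 CPM in resting cells, and in fl/fl 94.6, 85.2 and 60.5 CPM in effector and 95.7, 77.6 and 81.5 CPM in resting cells. The log2 differences were -0.06 in fl/fl, -0.31 in fl/+ and -0.42 in +/+ (SE 0.17, 0.16 and 0.17), and none was called (adjusted p = 0.892, 0.206 and 0.0925 by edgeR). The +/+ difference passed under 4 of 15 alternatives, among them the replicate block within genotype (-0.43, adjusted p = 0.0303), the block over all libraries (-0.44, adjusted p = 0.0253) and the fit without +/+ effector library 1 (-0.60, adjusted p = 0.0361). Rela showed no call in any genotype, with log2 differences of -0.07, -0.01 and 0.04 in fl/fl, fl/+ and +/+ and SEs of 0.12.

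Among the IkB genes, Nfkbiz was the clearest. It had 96.9, 110 and 97.3 CPM in fl/fl effector and 123, 140.4 and 138 CPM in fl/fl resting libraries, 108, 101 and 85.4 CPM in fl/+ effector and 196, 150.3 and 121 CPM in fl/+ resting libraries, and 114, 92.0 and 92.8 CPM in +/+ effector and 172, 180 and 142 CPM in +/+ resting libraries. Each of the 9 resting libraries was above each of the 9 effector libraries. Nfkbiz fell by 0.72 on the log2 scale in +/+ (SE 0.15, adjusted p = 0.00222 by edgeR) and by 0.67 in fl/+ (SE 0.15, adjusted p = 0.00306), lower in 3 of 3 numbered pairs each. In fl/fl the log2 difference was -0.40 (SE 0.15, adjusted p = 0.131), also lower in 3 of 3 pairs, and it passed with the replicate block within genotype (-0.40, adjusted p = 0.0173). The highest Nfkbiz value, 196 CPM, was in fl/+ resting library 1, which also had the handling-response sum of 3515 CPM. Without that library the fl/+ difference was -0.46 (adjusted p = 0.0455).

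Nfkbie, the IkB epsilon gene, had 41.4, 40.6 and 36.3 CPM in fl/fl effector and 41.1, 35.4 and 37.8 CPM in fl/fl resting libraries. It had 59.6, 54.6 and 52.2 CPM in fl/+ effector and 41.4, 47.2 and 37.1 CPM in fl/+ resting libraries. In +/+ it had 45.6, 47.6 and 48.4 CPM in effector and 37.5, 42.1 and 40.3 CPM in resting libraries. The states did not overlap in fl/+ and in +/+, and they overlapped in fl/fl. The rise of 0.41 in fl/+ was called (SE 0.12, adjusted p = 0.0208 by edgeR), and it moved to an adjusted p of 0.0756 without fl/+ resting library 1, 0.0854 without fl/+ effector library 1 and 0.077 without fl/+ resting library 3. The values of 0.06 in fl/fl and 0.24 in +/+ were not called (adjusted p = 0.85 and 0.199).

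The IkB alpha gene Nfkbia had 379, 391 and 393 CPM in fl/+ effector and 329, 315 and 285 CPM in fl/+ resting libraries, with no overlap. In fl/fl the values were 401, 245 and 219 CPM in effector and 306, 277 and 237 CPM in resting libraries, and in +/+ 456, 446 and 372 CPM in effector and 407, 372 and 310 CPM in resting libraries. Its log2 differences of 0.09 in fl/fl, 0.32 in fl/+ and 0.23 in +/+ (SE 0.16 each) were not called (adjusted p = 0.83, 0.196 and 0.392 by edgeR). The fl/+ difference passed with the replicate block within genotype (0.32, adjusted p = 0.0211).

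Nfkbid had 70.9, 50.3 and 46.5 CPM in fl/fl effector and 56.4, 50.9 and 46.3 CPM in fl/fl resting libraries. In fl/+ it had 58.3, 79.5 and 62.4 CPM in effector and 63.8, 70.4 and 57.8 CPM in resting libraries, and in +/+ 82.6, 93.0 and 75.4 CPM in effector and 66.7, 62.8 and 60.0 CPM in resting libraries. The states were apart only in +/+, where the log2 difference of 0.40 (SE 0.15) had an adjusted p of 0.0861 by edgeR and of 0.0216 with the replicate block within genotype. Nfkbib, the IkB beta gene, lay between 39.4 and 65.5 CPM in all libraries, and its log2 differences of 0.14, -0.01 and 0.13 in fl/fl, fl/+ and +/+ had SEs of 0.13 to 0.14.

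**Figure D2:**
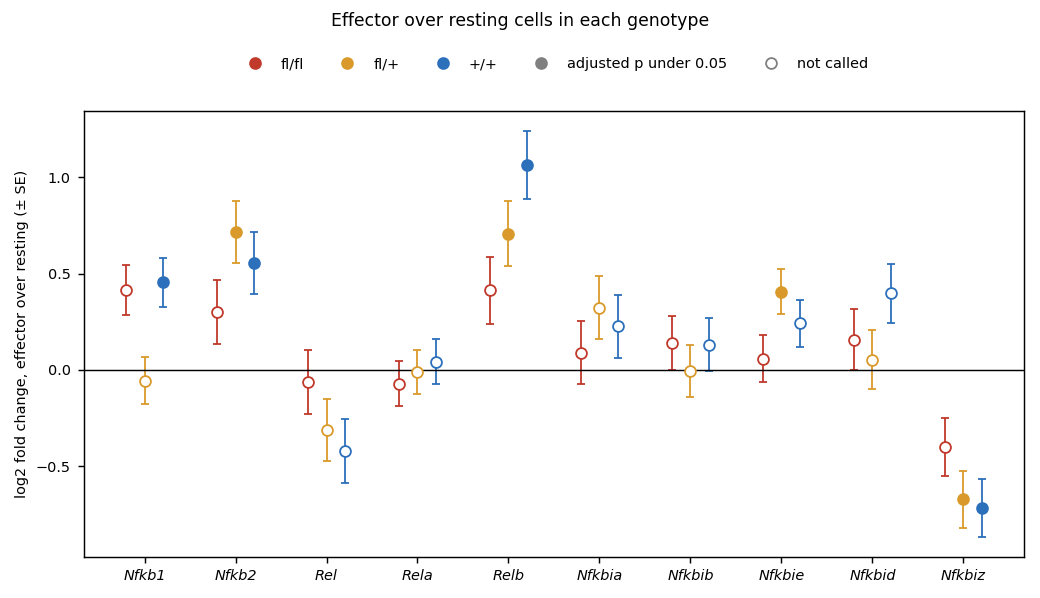
Log2 fold change of effector over resting cells (vertical axis, with the SE of the fit) for each gene and genotype; filled points had an adjusted p under 0.05. Relb is at 0.41 in fl/fl, 0.71 in fl/+ and 1.06 in +/+, and Nfkbiz at -0.40, -0.67 and -0.72 in the same order.

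Whether the state difference itself depended on genotype was tested by the interaction, the log2 difference in fl/fl or fl/+ less that in +/+. No member was called in either interaction, where 0% and 0.0188% of all genes were called for fl/fl and fl/+. The member ranked first in the fl/+ interaction was Nfkb1, with -0.51 (SE 0.18, adjusted p = 1 by edgeR). For Relb, ranked first in the fl/fl interaction, the value was -0.65 (SE 0.25, adjusted p = 0.452 by edgeR), with adjusted p from 0.103 to 0.725 over the alternatives. These were the only members below an unadjusted p of 0.05, 1 in each interaction, beside 8.97% and 3.23% of all genes for fl/fl and fl/+. DESeq2 called no member, and 0.0931% and 0.0103% of its genes. With the replicate block within genotype no member was called, 120 genes (1.13%) were called in the fl/fl and 0.0188% in the fl/+ interaction, and Relb was at -0.66 with an adjusted p of 0.132 in the first. A call in +/+ and none in fl/fl is thus not a shown difference between genotypes.

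The second comparison asks which of these transcripts differ between genotypes in effector cells. Relb, Nfkbia and Nfkbid had lower means in fl/fl than in +/+ effector cells, and Nfkb2 and Nfkbie had lower means in fl/fl than in fl/+ effector cells. No member passed in the edgeR fit of all libraries with the low-count filter and no block for the library number. Without the filter, or with certain single libraries left out, edgeR did call members, as given below. The background was 2.81% of genes called for fl/fl against +/+ and 0.677% for fl/fl against fl/+. The contrasts share the fl/fl libraries. At an unadjusted p under 0.05 there were 4 members in each, all lower, beside 17.3% of all genes against +/+ and 11.8% against fl/+. DESeq2 called 3 members against +/+ and 2 against fl/+, where 4.02% and 1.74% of its genes were called. With the number as a replicate block over all libraries, Nfkbia (-0.57, adjusted p = 0.0107 by edgeR) and Nfkbid (-0.56, adjusted p = 0.0257) were called against +/+, where 552 genes (5.19%) were called. Against fl/+, Nfkb2 (-0.59, adjusted p = 0.0448) and Nfkbie (-0.49, adjusted p = 0.0398) were then called, beside 181 genes (1.70%). The values that follow are from the fit of all libraries with the filter and without the block.

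Against +/+, Nfkbid averaged 55.9 ± 13.1 CPM in fl/fl and 83.7 ± 8.86 CPM in +/+ effector cells (SD, n = 3 each), and the groups did not overlap. The log2 difference was -0.55 (SE 0.15, adjusted p = 0.0578 by edgeR). Nfkbia averaged 288 ± 98.4 CPM in fl/fl and 425 ± 45.8 CPM in +/+ effector cells, a log2 difference of -0.55 (SE 0.16, adjusted p = 0.0727). Relb averaged 79.9 ± 22.0 CPM in fl/fl and 120.2 ± 23.9 CPM in +/+ effector cells, a log2 difference of -0.57 (SE 0.17, adjusted p = 0.0693). Both of these pairs of groups overlapped through fl/fl library 1 and +/+ library 3. Nfkb2 was at -0.40 (SE 0.16, adjusted p = 0.189), Nfkbie at -0.25 (SE 0.12, adjusted p = 0.309) with no overlap between the groups, and Nfkb1 at -0.20 (SE 0.13, adjusted p = 0.447). Groups without overlap were seen for 2 of 10 members here and for 20.5% of all genes.

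Against fl/+, Nfkbie averaged 39.4 ± 2.77 CPM in fl/fl and 55.5 ± 3.74 CPM in fl/+ effector cells, with no overlap. The log2 difference was -0.48 (SE 0.12, adjusted p = 0.0618 by edgeR). Nfkb2 averaged 101 ± 21.2 CPM in fl/fl and 152 ± 6.83 CPM in fl/+ effector cells, again with no overlap, and its log2 difference was -0.58 (SE 0.16, adjusted p = 0.0976). Relb and Nfkbia were at -0.42 each (adjusted p = 0.297 and 0.283) and Nfkbid at -0.22 (adjusted p = 0.636). The 2 members without overlap compare with 16.3% of all genes.

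Which members passed also changed with single libraries. The fl/fl effector library 1 had the highest Nfkb2, Relb, Nfkbia and Nfkbid of its group (125, 103, 401 and 70.9 CPM), and also the effector-marker sum of 684 CPM. Without it, 6.05% of all genes were called against +/+ and 2.89% against fl/+. In that fit 4 members were lower in fl/fl than in +/+ effector cells: Nfkbia at -0.87 (adjusted p = 0.00108 by edgeR), Nfkbid at -0.78 (adjusted p = 0.0058), Relb at -0.83 (adjusted p = 0.0065) and Nfkb2 at -0.61 (adjusted p = 0.0413). Against fl/+, Nfkbia at -0.74 (adjusted p = 0.0067), Nfkb2 at -0.78 (adjusted p = 0.0174), Relb at -0.68 (adjusted p = 0.0333) and Nfkbie at -0.52 (adjusted p = 0.0454) then passed. Leaving out +/+ effector library 3, with its effector-marker sum of 823 CPM and a summed level of 5 proliferation markers of 258 CPM against 102 and 99.4 CPM in libraries 1 and 2, gave calls for Relb at -0.73 (adjusted p = 0.0175), Nfkbid at -0.61 (adjusted p = 0.0421) and Nfkbia at -0.63 (adjusted p = 0.0467), beside 4.96% of all genes. For Relb, Nfkbia and Nfkbid these libraries are the ones of their groups nearest to the other genotype. Leaving either out therefore widens those differences by construction, and the calls are no added support. The part of the effector-marker level in these values was not tested.

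**Figure D3:**
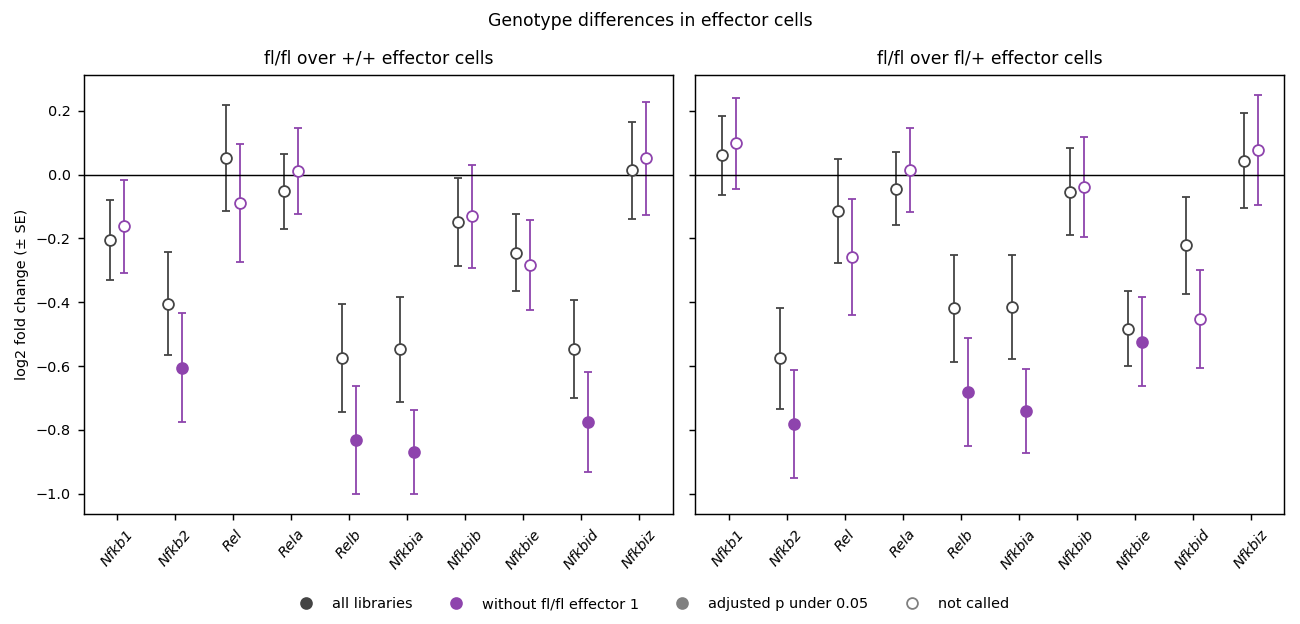
Log2 fold change in effector cells of fl/fl over +/+ (left) and fl/fl over fl/+ (right), with the SE of the fit, for all libraries (grey) and without fl/fl effector library 1 (purple); filled points had an adjusted p under 0.05. Nfkbia against +/+ is at -0.55 with all libraries and at -0.87 without that library, which has the highest Nfkbia of its group.

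Between fl/+ and +/+ effector cells no member was called (0.00941% of genes called), 2 members had an unadjusted p under 0.05, beside 5.47% of all genes, and DESeq2 called no member and 0.316% of its genes. Those 2 were Nfkbid at -0.33 (SE 0.15) and Nfkb1 at -0.26 (SE 0.12), each with an adjusted p of 0.883 by edgeR. Nfkbie was at 0.24 (SE 0.12, adjusted p = 0.908), and its fl/+ libraries were all above its +/+ libraries, as seen for 11.6% of all genes in either direction.

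In resting cells no member was called in any genotype contrast with the low-count filter. Without the filter, Nfkbia was called for fl/fl against +/+ (adjusted p = 0.0177 by edgeR), beside 315 genes. It was the only one of 14 alternatives in which it passed. For fl/fl against +/+ the background was 0.696% of genes called, and 1 member had an unadjusted p under 0.05, beside 8.21% of all genes: Nfkbia, with 306, 277 and 237 CPM in fl/fl and 407, 372 and 310 CPM in +/+ resting libraries, a log2 difference of -0.41 (SE 0.16, adjusted p = 0.46 by edgeR). Rel at -0.31, Nfkbid at -0.31 and Nfkbiz at -0.30 also had every fl/fl library under every +/+ library, which makes 4 members against 11.6% of all genes, and their adjusted p-values were 0.698, 0.672 and 0.621. For fl/fl against fl/+ no member was called (0.0282% of genes), and 2 had an unadjusted p under 0.05, beside 4.83% of all genes: Nfkb1 at -0.41 (SE 0.13, adjusted p = 0.825) and Rel at -0.37 (SE 0.16, adjusted p = 0.994). Both, and Nfkbid at -0.32, were without overlap, 3 members against 9.57% of all genes. For fl/+ against +/+ no member was called (0.0847% of genes) or had an unadjusted p under 0.05 (6.29% of genes). DESeq2 called no member in the resting contrasts, and 1.24%, 0.0205% and 0.337% of its genes for fl/fl against +/+, fl/fl against fl/+ and fl/+ against +/+. Nfkb1 alone was without overlap there, higher in fl/+ at 0.25 (SE 0.13, adjusted p = 0.847), against 10.3% of all genes.

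The balance between members was described by ratios of FPKM in each library, with no test. The Relb to Rela ratio was 1.13, 0.63 and 0.682 in fl/fl, 1.01, 1.11 and 1.05 in fl/+ and 1.23, 1.35 and 0.938 in +/+ effector libraries, and 0.531 to 0.737 in the 9 resting libraries. The fl/fl effector libraries 2 and 3 thus lay inside the resting range, and library 1 lay among those of the other genotypes. The Nfkbiz to Nfkbid ratio, chosen after the values were seen, was 0.742, 1.18 and 1.12 in fl/fl, 1.01, 0.693 and 0.743 in fl/+ and 0.752, 0.533 and 0.665 in +/+ effector libraries, and 1.13 to 1.67 in resting libraries. The Nfkb2 to Nfkb1 ratio was highest in fl/+ effector cells, 3.33, 3.51 and 3.95, against 1.82 to 2.95 in the other 15 libraries. Nfkbia relative to the sum of the 5 subunits was 0.918 to 1.45 in fl/fl, 1.23 to 1.34 in fl/+ and 1.42 to 1.44 in +/+ effector cells, and 1.00 to 1.39, 1.10 to 1.33 and 1.37 to 1.68 in fl/fl, fl/+ and +/+ resting cells.

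**Figure D4:**
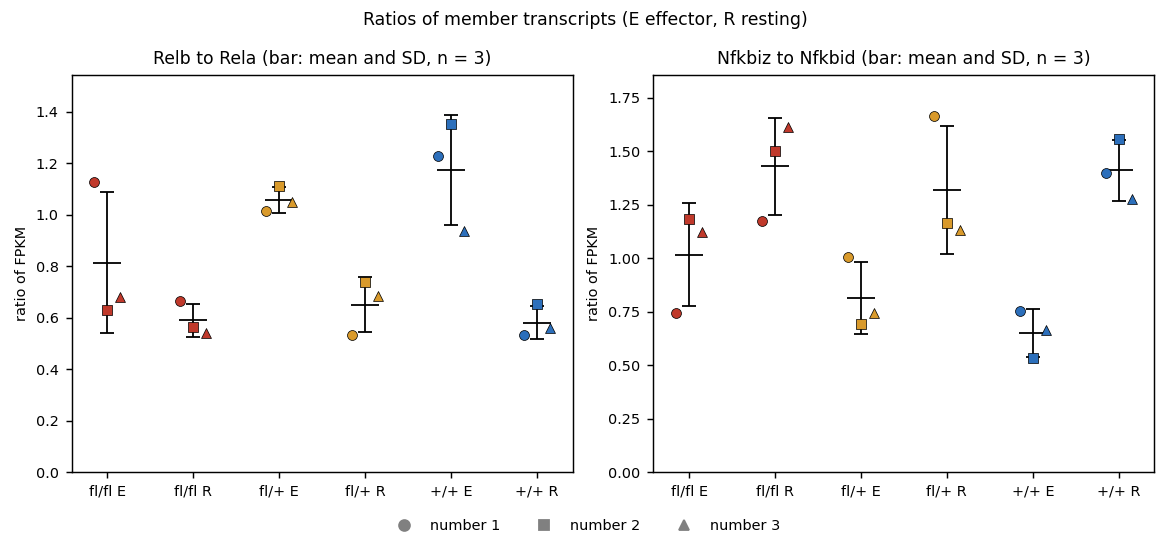
Ratio of FPKM of Relb to Rela (left) and of Nfkbiz to Nfkbid (right) in each library, by genotype and state (E effector, R resting), with bars for the mean and SD (n = 3). Relb to Rela reaches 1.35 in a +/+ effector library and stays at or under 0.737 in resting libraries.

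The genes whose log2(CPM + 1) over the 18 libraries was most like that of each member were listed by Pearson's r among 8831 genes, as a description over libraries that share state and genotype. For Relb they were Srgn (r = 0.943), Tnfrsf1b (0.941) and F2r (0.941), and for Nfkb2 they were Lax1 (0.923), Cep250 (0.918) and Lclat1 (0.915). For Nfkbiz they were Slc38a2 (0.944), Map3k1 (0.925) and Stk10 (0.914), for Nfkbia Pvt1 (0.886), H2-Q8 (0.874) and Atp2b1 (0.874), and for Nfkbid Traf2 (0.875), Manbal (0.848) and Sdc4 (0.832). Rela, which varied least, reached no more than 0.714, with Heatr3.

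The other genes of the pathway were read from lists. Of 19 genes for IkB kinase and its activation, 0 were called between states in fl/fl and 3 each in fl/+ and +/+ (15.8% of the list, near the 16.3% and 16.0% of all genes), with median log2 differences of -0.10, -0.08 and -0.12 beside -0.01 for all genes. Fbxw11, part of the ligase that tags phosphorylated IkB, rose by 0.49 in fl/+ and 0.55 in +/+ effector cells (adjusted p = 0.00417 and 0.00205 by edgeR). The kinase genes Ikbkb and Ikbke fell by 0.49 and 0.41 on the log2 scale in fl/+ and by 0.40 and 0.42 in +/+ effector cells. Map3k14, the NIK gene, was at -0.315, -0.527 and -0.323 in fl/fl, fl/+ and +/+ and was not called (adjusted p = 0.494, 0.122 and 0.399). Of 4 genes for the antigen receptor route, 0, 2 and 2 were called in fl/fl, fl/+ and +/+. Malt1, the protease of the scaffold complex, rose by 0.98 in fl/+ and 1.33 in +/+ (adjusted p = 0.00314 and 0.000278), and Prkcq, the kinase that acts on the complex, fell by 0.63 and 0.57. Bcl10 and Prkcb were not called, and Malt1 in fl/fl was at 0.36 (adjusted p = 0.397). Of 11 other inhibitor and feedback genes tested, the IkB family gene Bcl3 among them, 0, 1 and 2 were called in fl/fl, fl/+ and +/+ (0%, 9.09% and 18.2%). Otud7b, a deubiquitinase, rose in fl/+ and +/+ (0.68 and 0.62), and N4bp1 rose in +/+ (1.02, adjusted p = 0.00288). No gene of these 3 lists was called in a genotype contrast or an interaction.

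Known targets of NF-kB were read the same way. Of 26 tested, 9 rose and 0 fell between states in fl/fl, 10 rose and 2 fell in fl/+, and 13 rose and 2 fell in +/+ effector cells. That is 34.6%, 46.2% and 57.7% of those tested, beside 6.34%, 16.3% and 16.0% of all genes, with medians of 0.36, 0.29 and 0.48 beside -0.01 for all genes. The list was chosen with earlier results of these data known, so these shares are a description and no test. Of all called genes, 79.1% were higher in fl/fl, 59.6% in fl/+ and 59.4% in +/+, and on FPKM with limma these shares were 92.3%, 74.6% and 72.5%. Cd83, an activation marker, averaged 107, 265 and 304 CPM in fl/fl, fl/+ and +/+ effector cells and 25.4, 56.4 and 62.4 CPM in resting cells, and rose by 2.11, 2.26 and 2.28. Ebi3, a subunit of the cytokine interleukin-35, averaged 13.0, 31.9 and 35.3 CPM in effector cells and 0.875 to 1.71 CPM in resting cells and was called in all 3 genotypes. Bcl2a1d, a survival gene with near-identical copies, rose by 1.60, 1.80 and 2.53. Gadd45b, a stress-response gene, rose by 1.64, 1.48 and 1.93 in the same order. The cytokine gene Il10 averaged 1.03, 10.3 and 31.3 CPM in fl/fl, fl/+ and +/+ effector cells and at most 0.496 CPM in resting groups. In fl/fl against +/+ effector cells 1 target was higher and 3 were lower, 15.4% of those tested beside 2.81% of all genes: Ccr7, which is also on the list of resting-state markers, rose by 0.68 (adjusted p = 0.0371), and Il10, Cd83 and Tnfrsf1b were lower (adjusted p = 0.00119, 0.0429 and 0.00779). Against fl/+, Il10 alone was called, lower in fl/fl (adjusted p = 0.0484), 3.85% of those tested beside 0.677% of all genes, and no target was called in resting cells or between fl/+ and +/+.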

How the data were processed

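RNA-seq libraries of sorted mouse Treg cells, 18 in 6 groups of 3, were analysed. The submitters' processing notes list build mm10 and the tools RSEM 1.2.8, STAR 2.6.0 and bcl2fastq 2.17.1.14, and give no annotation, strand setting or filter. The authors deposited RSEM expected counts per gene and library, the input of the main tests, and a table of FPKM values, used for levels between genes, ratios and alternatives. Fractional values made up 29.4% of those above 0, and all were rounded. Rn45s, a ribosomal RNA gene, held 10.9 to 16.4% of the counts per library.

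In R 4.3.3, edgeR 4.0.16 was run with TMM scaling and filterByExpr by group (10630 of 23420 genes kept), 1 model of 6 group means over the 18 libraries and quasi-likelihood F tests of 11 contrasts, two-sided. The threshold for a call was 0.05 after Benjamini-Hochberg adjustment. Alternatives were other size factors, no filter, DESeq2 1.42.0, limma 3.58.1 on log2(FPKM + 1) and log2(FPKM + 0.1) for genes of mean FPKM of at least 1, Rn45s left out, only the contrast's groups, replicate blocks and single libraries left out. Counting error alone is larger in the libraries of lower total, and the fit carries it.

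The number of a library was taken as a possible batch that pairs libraries within and across genotypes. Residuals of the 9 resting and effector pairs of one genotype and number had a mean correlation of 0.207 (0.141 to 0.345), all above 0.1. Across genotypes the mean for one number was 0.067 (-0.078 to 0.296 over 36 pairs), with 12 above 0.1. Pairs of unlike number had a mean of -0.103 within a genotype, with 0 of 18 above 0.1. Across genotypes their mean was -0.033, with 2 of 72 above 0.1. The main tests had no block for the number.

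The text names all 10 members, in each pathway list called genes up to the 4 of the largest log2 fold change, and for a member the 3 genes of highest r with a mean of at least 5 CPM, leaving out predicted models, microRNA and small nucleolar RNA. Members and lists were chosen with earlier results of these data known. Otulin and Trac are not among the symbols of the table. Results of 2 genes are not reported here, and marker sums leave them out.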

Additional observations from a re-analysis of the deposited data

How the results depend on the processing

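Each of the 8 state differences called for a member kept its direction under all 15 alternatives. In 11 of these 120 repeats the call was lost, always for Nfkb1, Nfkb2, Relb or Nfkbie, and the library named beside each in the report accounts for 9 of them; the others were Nfkbie without the low-count filter (adjusted p = 0.104) and Nfkb2 in +/+ with only its groups in the fit (adjusted p = 0.0592). Of the 102 member values not called, 35 changed sign under at least 1 alternative and none was called with the other sign. Among those reported, Nfkb1 in fl/+ was 0.03 on log2(FPKM + 1) and 0.031 on log2(FPKM + 0.1), and -0.148 to 0.031 with 1 library left out. With 1 library left out Nfkbid in fl/+ ran from -0.075 to 0.153, and in fl/fl Rel ran from -0.196 to 0.093, Nfkbia from -0.228 to 0.254 and Nfkbid from -0.067 to 0.266. Over the 15 alternatives Rela ran from -0.182 to 0.075 in fl/fl, -0.049 to 0.084 in fl/+ and -0.025 to 0.131 in +/+. Nfkbib in fl/+ ran from -0.069 to 0.089. The cause of these sign changes was not tested.

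Counts of called genes moved more. Counts of called members from here on are given beside the count of all genes called under the same setting, not the share of genes tested. None is read as a result about the members. Without the low-count filter there were 1012 between states in fl/fl; 830 and 315 for fl/fl against +/+ in effector and resting cells, 488 and 94 for fl/fl against fl/+, 176 and 219 for fl/+ against +/+, and 246 and 31 in the fl/fl and fl/+ interactions. Members called were then 3, 1 and 2 for fl/fl against +/+ in effector cells, the same in resting cells, and fl/fl against fl/+ in effector cells. DESeq2 gave 129 genes for fl/fl against +/+ in resting cells, 182 for fl/fl against fl/+ in effector cells, 21 and 39 for fl/+ against +/+ in effector and resting cells and 15 in the fl/fl interaction. It called 3 and 2 members in effector cells for fl/fl against +/+ and fl/+, beside 435 and 182 genes. The log2(FPKM + 1) scale gave 19 genes for fl/fl against fl/+ and 2 for fl/+ against +/+ in effector cells and 3 in the fl/fl interaction. It called 1 member each between states in fl/fl and for fl/fl against +/+ in effector cells, beside 649 and 337 genes. The log2(FPKM + 0.1) scale gave 179 and 13 genes for fl/fl against +/+ and fl/+ in effector cells, and 1 member beside 625 genes between states in fl/fl. With only the groups of the contrast there were 349 between states in fl/fl, 154 and 35 for fl/fl against +/+ in effector and resting cells, 4 and 6 for fl/fl against fl/+, and 0 and 5 for fl/+ against +/+.

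The replicate block with the number over all libraries gave 552 and 179 genes for fl/fl against +/+ in effector and resting cells, 181 for fl/fl against fl/+ in effector cells, 34 and 90 for fl/+ against +/+ in effector and resting cells and 3 in the fl/fl interaction. It called 1 member beside 836 genes between states in fl/fl, and 2 members each for fl/fl against +/+ and fl/+ in effector cells. The replicate block within genotype gave 1071 genes and 1 member between states in fl/fl and 120 genes in the fl/fl interaction; beyond the calls printed in the report neither block changed one of a member.

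Leaving out 1 library gave 266 to 791, 1092 to 1601 and 1215 to 1589 genes between states in fl/fl, fl/+ and +/+, with 0 to 1, 2 to 4 and 2 to 4 members. For fl/fl against +/+ it gave 31 to 648 genes in effector and 6 to 154 in resting cells, with 0 to 4 and 0 to 0 members; for fl/fl against fl/+ 3 to 310 and 3 to 4 genes, with 0 to 4 and 0 members; for fl/+ against +/+ 1 to 5 and 3 to 75 genes with 0 members; and 0 to 33 and 2 to 2 genes in the fl/fl and fl/+ interactions with 0 members. The SE of a member's log2 difference between groups was 0.12 to 0.18 at these library totals with 3 libraries a group.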
